A study of Mus musculus with 18 samples.

Results

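miR-31-5p and miR-31-3p (mmu-miR-31-5p and mmu-miR-31-3p in the table), the mature microRNAs cut from the left and right arms of the miR-31 hairpin, were followed through UV-driven skin carcinogenesis in the mouse. They are 2 of the 1251 microRNA entries in the table of 18 small RNA libraries, and were taken by name. Both were among the 293 entries tested, which are those detected in at least 6 libraries. The libraries came from 6 littermate female SKH-1E Hairless mice, numbered 2, 3, 7, 8, 9 and 10. This strain carries a defect of the Hairless gene and is prone to UV-induced skin tumours. All mice were irradiated with UVB and UVA from a solar simulator, in divided doses each week, for 100 days. Irradiation began at 3 months of age, and tissue was collected 14 days after the last exposure. Each mouse gave 1 library of chronically irradiated skin without a lesion (CHR), 1 of papilloma (PAP) and 1 of cutaneous squamous cell carcinoma (cuSCC). CHR is therefore UV-damaged skin and not untreated skin, and no unirradiated skin was analysed here. Whole tissue was used, in which a larger share of a cell type and more RNA per cell of that type cannot be told apart.

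A microRNA hairpin is cut by Drosha and then Dicer to a short duplex. One strand of the duplex is usually kept in an Argonaute protein, where bases 2 to 8, the seed, pair with sites in messenger RNAs, and the other strand is usually degraded. In skin, miR-31 is known as a microRNA of keratinocytes that rises in wounded and psoriatic epidermis, and it is often raised in squamous carcinomas, mostly through its 5p arm. Both arms are shown because the results turn on how differently they accumulate. Capitals mark the seed, and the sequences are those of RefSeq on GRCm38.p6.
miR-31-5p: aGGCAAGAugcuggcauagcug
miR-31-3p: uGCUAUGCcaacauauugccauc
The 5p arm has 22 bases and lies at chr4:88910614-88910635 on the minus strand. The 3p arm has 23 bases and lies at chr4:88910577-88910599 on the same strand. Of 1679 mature mouse sequences, 0 others shared the seed of the 5p arm and 0 others shared that of the 3p arm, so neither belongs to a seed family among them. Whole sequences were not compared, so whether reads of another microRNA could be counted for an arm was not tested. The hairpin, at chr4:88910557-88910662, is shown with both arms in capitals.
Mir31: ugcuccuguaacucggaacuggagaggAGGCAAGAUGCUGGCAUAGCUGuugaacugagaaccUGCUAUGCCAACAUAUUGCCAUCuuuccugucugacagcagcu
In a predicted fold of this sequence, 17 bases of the 5p arm paired with the 3p arm, at a folding energy of -48.7 kcal/mol. Of the 7 seed bases, 6 of the 5p arm and 7 of the 3p arm were paired with the other arm. The hairpin lies within exon 3 (chr4:88909855-88910710) of a long non-coding RNA gene, AL805899.1, on the same strand. Of the protein-coding genes looked up by name, the interferon gene Ifne is 30.36 kb away and the tumour suppressor locus Cdkn2a is 363.8 kb away. The other microRNAs of the table within 5 Mb, miR-491-5p, miR-491-3p and miR-6402, stood at the lowest value in all 18 libraries.

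The values are on a log2 scale that the authors derived from ppm of usable reads, and are quantile normalized between libraries. Unlogged, each library summed to 2.35 to 2.36 times what ppm can add up to, which makes the values relative levels rather than read shares. Such values carry the order of microRNAs within a library, so the same value recurs in different libraries where a microRNA has the same rank. The lowest value, 3.32 or 10 on the unlogged scale, stands for an undetected microRNA. A CHR library detected 200 to 328 entries, a PAP library 163 to 281 and a cuSCC library 236 to 365, and the lowest detected value ranged from 3.32 to 6.83. No read totals of single libraries entered, and the depth of a value is thus unknown. Where miR-31-3p stood at the lowest value, its level was somewhere below the lowest detected value of that library.

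miR-31-5p rose in both lesions. It stood at 13.02, 11.88, 11.38, 11.94, 12.24 and 11.22 on the log2 scale in the CHR of mouse 2, 3, 7, 8, 9 and 10. In the PAP of the same mice it stood at 15.98, 15.82, 15.03, 15.03, 13.93 and 15.14. In the cuSCC it stood at 15.03, 15.56, 13.26, 14.44, 14.44 and 15.24. All 6 PAP and all 6 cuSCC libraries lay above all 6 CHR libraries. The margin was narrowest between the cuSCC of mouse 7, at 13.26, and the CHR of mouse 2, at 13.02. The means were 11.95 ± 0.65 in CHR, 15.15 ± 0.73 in PAP and 14.66 ± 0.82 in cuSCC (SD, n = 6).

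**Figure D1:**
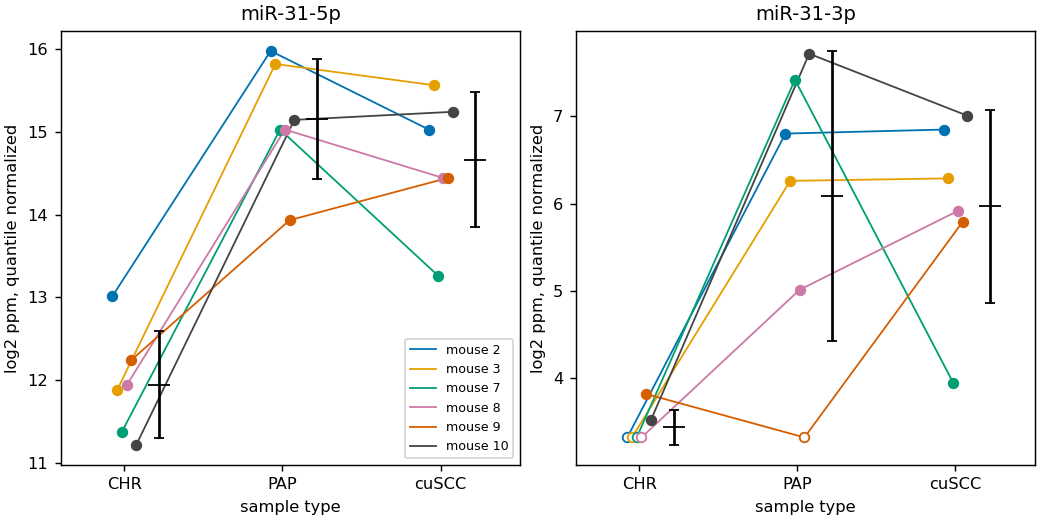
miR-31-5p (left) and miR-31-3p (right) in each library, in log2 ppm after quantile normalization, by sample type. Lines join the libraries of 1 mouse, open points mark an undetected 3p arm, and black bars give the mean and SD of 6 libraries. The 5p arm is above every CHR library in all 12 lesions, while the 3p arm is undetected in 4 CHR libraries and in the PAP of mouse 9.

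The rise of miR-31-5p from CHR to PAP was 3.21 on the log2 scale (standard error 0.39, 95% interval 2.36 to 4.06, limma adjusted p = 4.89e-05), or 9.24-fold. Among all microRNAs tested, 32.4% were called in this comparison, 14% as higher and 18.4% as lower, and 6.48% lay higher in PAP without overlap. From CHR to cuSCC the rise was 2.72 (standard error 0.41, 95% interval 1.84 to 3.60, limma adjusted p = 0.000189), or 6.57-fold. Here 42.3% of all microRNAs tested were called, 20.1% as higher and 22.2% as lower, and 9.9% lay higher in cuSCC without overlap. The exact permutation test over libraries gave p = 0.00216 for each rise, the smallest it can give with 6 against 6. The 2 rises share the CHR libraries and are not independent. The balance of the background depends on how undetected values are placed. In PAP 41 of the 95 called microRNAs were higher, against 63 of 100 with each undetected value raised to the lowest one detected in that library. miR-31-5p was detected in all 18 libraries, so its difference of 3.21 cannot change with that placement.

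Between the lesions no difference of miR-31-5p was established. The cuSCC libraries differed from the PAP libraries by -0.49 (standard error 0.44, 95% interval -1.44 to 0.46, limma adjusted p = 0.479). In this comparison 11.6% of all microRNAs tested were called, 9.22% as higher and 2.39% as lower. The interval leaves room for a fall of up to 1.44 or a rise of up to 0.46. Within mice, miR-31-5p was higher in PAP than in CHR in 6 of 6 mice, by 1.69 in mouse 9 to 3.94 in mouse 3. It was higher in cuSCC than in CHR in 6 of 6 mice, by 1.88 in mouse 7 to 4.02 in mouse 10. From PAP to cuSCC it was higher in 2 mice, by 0.51 in mouse 9 and 0.10 in mouse 10, and lower in 4, with the largest fall of -1.77 in mouse 7. The order of the means was PAP, cuSCC and CHR, and PAP and cuSCC did not differ beyond their spread.

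The place of miR-31-5p within each library moved in the same way. Counted from the most abundant entry, it ranked 34, 51, 60, 50, 45 and 63 in the CHR of mouse 2, 3, 7, 8, 9 and 10. It ranked 10, 11, 17, 17, 25 and 16 in PAP, and 17, 13, 31, 21, 21 and 15 in cuSCC. The CHR ranks thus ran from 34 down to 63, and no lesion ranked below 31. The mean rank changed by -34.5 places from CHR to PAP and by -30.8 places from CHR to cuSCC (two-sided exact permutation test, smallest possible p, adjusted p = 0.00325 over 3 comparisons). From PAP to cuSCC the mean rank changed by 3.67 places (exact permutation test, adjusted p = 0.333). With libraries paired by mouse, both changes from CHR gave the smallest possible p of 0.03125 (exact sign-flip test, adjusted p = 0.0469 over 3 comparisons). The change from PAP to cuSCC gave an adjusted p of 0.25 in that test. In all 6 PAP libraries 7 entries stayed above it. These were miR-205-5p, an abundant microRNA of keratinocytes with a mean of 18.22, miR-486-5p, an erythroid microRNA, with miR-3107-5p, which has the same means as miR-486-5p in every sample type, then miR-92a-3p, miR-191-5p, miR-182-5p and miR-27b-3p.

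**Figure D2:**
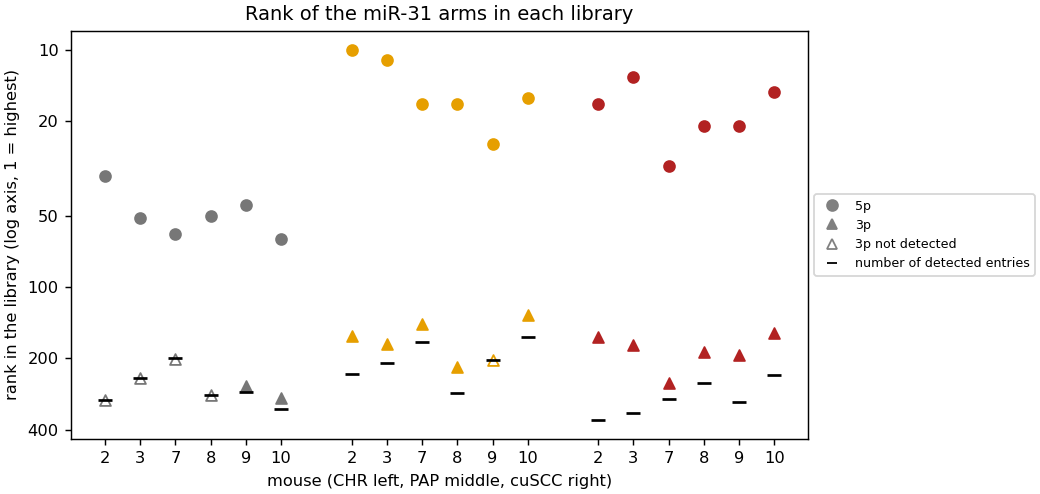
Rank of each miR-31 arm in each library (log axis, 1 is the most abundant entry), by mouse within sample type. Circles are the 5p arm, triangles the 3p arm, open triangles an undetected 3p arm placed just after the detected entries, and dashes the number of detected entries. The 5p arm ranks 34 to 63 in CHR, and in the lesions 10 to 25 (PAP) and 13 to 31 (cuSCC).

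By size, the rise of miR-31-5p was the largest but 5 of 293 from CHR to PAP and the largest but 6 from CHR to cuSCC. Of the 24 microRNAs called higher in both lesions, 2 rose by at least as much in each, miR-451a and miR-138-5p. miR-451a, an erythroid microRNA, rose by 4.78 and 3.99 in PAP and cuSCC (limma adjusted p = 0.00106 and 0.000747). miR-138-5p rose by 3.90 and 3.73 (limma adjusted p = 0.000322 and 7.75e-05). Both were far less abundant than miR-31-5p, with CHR means of 5.51 and 4.69. miR-451a was undetected in a CHR library and miR-138-5p in the CHR of mouse 3 and 7. The sizes of their rises therefore depend on where those values are placed. In a count chosen after the values were seen, 84 tested microRNAs had a CHR mean of at least 10. Of these, 1 differed by more than miR-31-5p from CHR to PAP, miR-6243 at 3.95 (limma adjusted p = 0.00489), and 1 from CHR to cuSCC, miR-21a-5p at 2.94 (limma adjusted p = 3.73e-05).

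**Figure D3:**
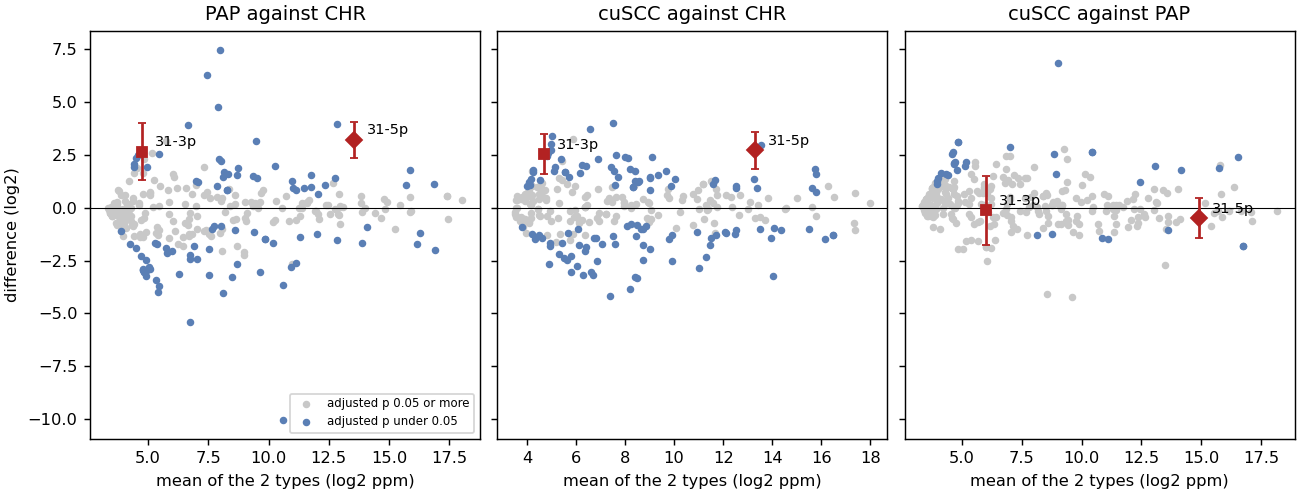
Difference of each tested microRNA (log2, vertical) against its mean over the 2 sample types compared (log2 ppm, horizontal), for PAP against CHR, cuSCC against CHR and cuSCC against PAP. Blue points have a limma adjusted p under 0.05, and red symbols with 95% intervals are the miR-31 arms. The 5p arm is higher by 3.21 and 2.72 in the lesions, the 3p arm by 2.65 and 2.53, and both intervals cross 0 in the comparison of the lesions.

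miR-31-3p was scarce in every library and also higher in the lesions. In CHR it was undetected in mouse 2, 3, 7 and 8, and stood at 3.82 in mouse 9 and 3.52 in mouse 10. In PAP it stood at 6.80, 6.26, 7.42 and 5.01 in mouse 2, 3, 7 and 8, was undetected in mouse 9 and stood at 7.72 in mouse 10. In cuSCC it stood at 6.85, 6.29, 3.95, 5.92, 5.79 and 7.01 in mouse 2, 3, 7, 8, 9 and 10. It was thus detected in 2 CHR, 5 PAP and 6 cuSCC libraries. With undetected values at the lowest value, all 6 cuSCC libraries and 5 of 6 PAP libraries lay above all CHR libraries. Over all microRNAs tested, 9.9% lay higher in cuSCC than in CHR without overlap. The separation of the 3p arm depends on that placement, as the CHR libraries of mouse 3 and 7 detected nothing below 4.48 and 5.77. The cuSCC of mouse 7, at 3.95, lies under both limits, and the PAP of mouse 8, at 5.01, under the limit of 5.77. In the PAP of mouse 9 the lowest detected value was 5.48, so that a level like that in the cuSCC of mouse 7 would not have been seen there.

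The rise of miR-31-3p from CHR to PAP was 2.65 (standard error 0.63, 95% interval 1.28 to 4.02, limma adjusted p = 0.00731, exact permutation p = 0.0152). From CHR to cuSCC it was 2.53 (standard error 0.44, 95% interval 1.60 to 3.46, limma adjusted p = 0.000503, exact permutation p = 0.00216). From PAP to cuSCC the difference was -0.12 (standard error 0.75, 95% interval -1.75 to 1.502, limma adjusted p = 0.907). Within mice, undetected values were kept at the lowest value. On that placement miR-31-3p was higher in PAP than in CHR in 5 of 6 mice, from -0.50 in mouse 9 to 4.20 in mouse 10. It was higher in cuSCC than in CHR in 6 of 6 mice, from 0.63 in mouse 7 to 3.53 in mouse 2. In mouse 7 the direction from CHR to cuSCC is unknown, as its CHR library detected nothing below 5.77 and its cuSCC stood at 3.95. In mouse 9 the direction from CHR to PAP is unknown, as its PAP library detected nothing below 5.48 and its CHR stood at 3.82. The sizes of the rises depend on where an undetected arm is placed. With each undetected value raised to the lowest one detected in that library, the rises were 2.31 and 1.83 (limma adjusted p = 0.00354 and 0.0111). With values under 100 ppm raised to 100 ppm, which hides most values of the 3p arm, they were 0.33 and 0.09 (limma adjusted p = 0.211 and 0.407).

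The 5p arm outweighed the 3p arm by a wide margin in all 18 libraries. The arm difference, 5p minus 3p on the log2 scale, was 9.69, 8.56, 8.06, 8.62, 8.42 and 7.69 in the CHR of mouse 2, 3, 7, 8, 9 and 10. In the 4 CHR libraries without a detected 3p arm the lowest detected value in its place gave 9.49, 7.40, 5.61 and 8.25, which are lower bounds. In PAP it was 9.17, 9.56, 7.61, 10.01, 10.61 and 7.43, with a lower bound of 8.45 for mouse 9. In cuSCC it was 8.18, 9.27, 9.31, 8.53, 8.65 and 8.23. The 3 sample types overlapped, with means of 8.51 ± 0.68, 9.06 ± 1.29 and 8.69 ± 0.49 (SD, n = 6).

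The test of the arm difference asks whether the arms changed by different amounts. From CHR to PAP it differed by 0.56 (standard error 0.58, 95% interval -0.67 to 1.79, limma adjusted p = 0.571), where 7.46% of the 67 hairpins with both arms tested were called. From CHR to cuSCC it differed by 0.19 (standard error 0.39, 95% interval -0.62 to 0.997, limma adjusted p = 0.684), where 41.8% were called. From PAP to cuSCC it differed by -0.37 (standard error 0.56, 95% interval -1.57 to 0.83, limma adjusted p = 0.825), where 4.48% were called. With each undetected value raised to the lowest one detected in that library, the arm difference of PAP exceeded that of CHR by 0.89 (standard error 0.60, limma adjusted p = 0.253). That of cuSCC then exceeded CHR by 0.88, with a standard error of 0.51 (limma adjusted p = 0.180). A shift of the arm balance was not established under either placement, and its size depends on the undetected 3p values of CHR. With values under 100 ppm raised to 100 ppm the arm difference rose by 2.87 in PAP and 2.62 in cuSCC (limma adjusted p = 0.000157 and 0.000137), as the 3p arm is then held at that limit in most libraries.

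Among the 67 hairpins, the arm difference of miR-31 ranked 6 to 12 in CHR, while its PAP ranks were 3 to 14 and its cuSCC ranks 4 to 9, counted from the one with the strongest excess of 5p. Its mean over all libraries was 8.76, rank 8, and 8 hairpins had a larger difference in either direction. The hairpins above it include both miR-486 and miR-3107, whose 5p arms have the same means in every sample type. The 5p arm was the higher in 32 hairpins and the 3p arm in 35, and the median difference in either direction was 4.29. The 4 hairpins with the nearest mean were miR-99b at 8.97, miR-744 at 8.96, let-7i at 8.49 and miR-21a at 8.30. From CHR to cuSCC the arm difference rose in let-7i, by 2.06 (limma adjusted p = 0.00325). It fell in miR-99b, by 1.63 (limma adjusted p = 0.00658), and in miR-744, by 1.04 (limma adjusted p = 0.0415). In miR-21a it differed by 0.23 (limma adjusted p = 0.615). The 3p arm was detected in 11 libraries for let-7i, 17 for miR-99b, 8 for miR-744 and 13 for miR-21a, as in 13 for miR-31. Undetected values entered these shifts, and the ranks and means above, at the lowest value. Where the 3p arm was undetected, the ranked difference is thus only the height of the 5p arm above the lowest value. Whether miR-31 differs from these hairpins in its shift was not tested.

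**Figure D4:**
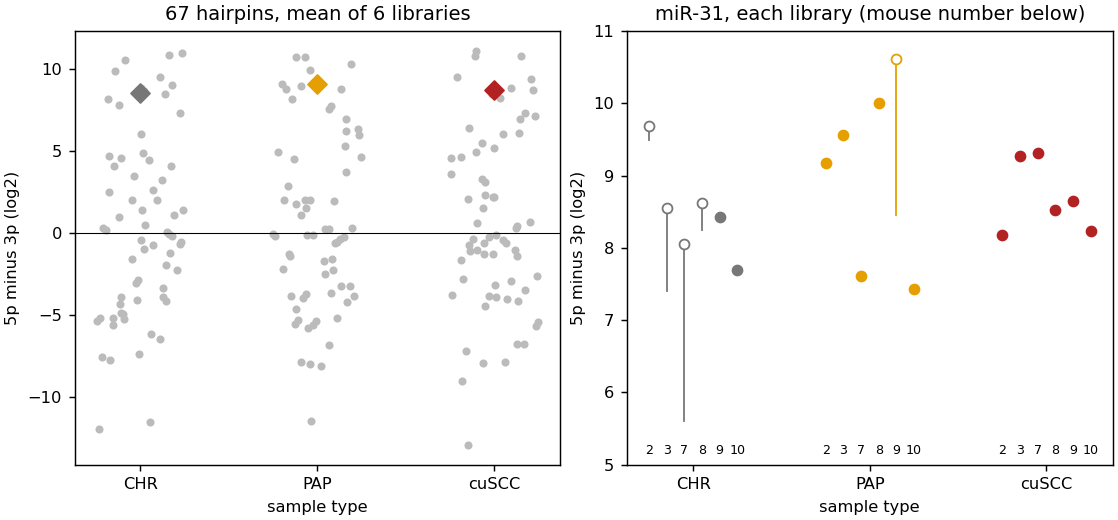
Left, the arm difference (5p minus 3p, log2) of 67 hairpins as the mean of 6 libraries in each sample type, with miR-31 as the coloured diamond. Right, miR-31 in each library, where open points have an undetected 3p arm and the line runs down to the lower bound. miR-31 lies near the top of the hairpins in each type, at means of 8.51, 9.06 and 8.69, and its libraries overlap between types. Undetected arms entered the means at the lowest value.

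Within a sample type the arms could be compared across mice in the lesions. In cuSCC the arms correlated at r = 0.909 over 6 libraries (exact permutation p = 0.025, adjusted p = 0.1 over 4 relations) and rho = 0.812 (exact permutation p = 0.0722, adjusted p = 0.144). Without the 2 libraries farthest from the median of the 5p arm r was 0.990 over 4 libraries, and without mouse 7, which had the lowest value of both arms, it was 0.647. In PAP r was 0.668 (exact permutation p = 0.139, adjusted p = 0.185) and rho was 0.464 (exact permutation p = 0.372, adjusted p = 0.372). Without the 2 farthest libraries r in PAP was -0.10, and without mouse 9, where the 3p arm was undetected, it was -0.01. Neither relation passed the adjustment, and the PAP value rests on mouse 9. The CHR was left out, as 4 of its 6 values of the 3p arm are at the lowest value.

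The microRNAs whose values followed miR-31-5p most closely over the 18 libraries were miR-93-5p (Pearson r = 0.910), miR-182-5p (0.868), miR-210-3p (0.866), miR-31-3p (0.859), miR-25-3p (0.834) and miR-138-5p (0.822). These correlations describe libraries that share a normalization and include the difference between sample types. After the mean of each sample type was removed they were 0.636, 0.298, 0.129, 0.639, 0.521 and 0.111. The microRNAs were picked for the first set of values, and neither set was tested. miR-93-5p and miR-25-3p are made from 1 cluster, miR-106b~25. miR-93-5p stood at 10.60 to 11.28 in CHR, and in the lesions at 12.002 to 13.26 (PAP) and 11.67 to 12.96 (cuSCC). miR-210-3p, a microRNA induced by hypoxia, stood at 7.25 to 8.49 in CHR, and at 10.12 to 11.85 (PAP) and 9.64 to 11.32 (cuSCC) in the lesions, with no overlap between CHR and either lesion. Over all microRNAs tested, 6.48% lay higher in PAP and 9.9% higher in cuSCC than in CHR without overlap.

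For miR-31-3p the most alike were miR-27a-3p (r = 0.879, and 0.790 with the type means removed), miR-31-5p (0.859), and miR-28c and miR-28a-5p (0.850 each). miR-28c and miR-28a-5p hold the same value in every library and cannot be counted as separate entries. miR-27a-3p had a range of 10.14 to 11.03 over CHR, 10.74 to 12.44 over PAP and 10.48 to 12.30 over cuSCC libraries.

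**Figure D5:**
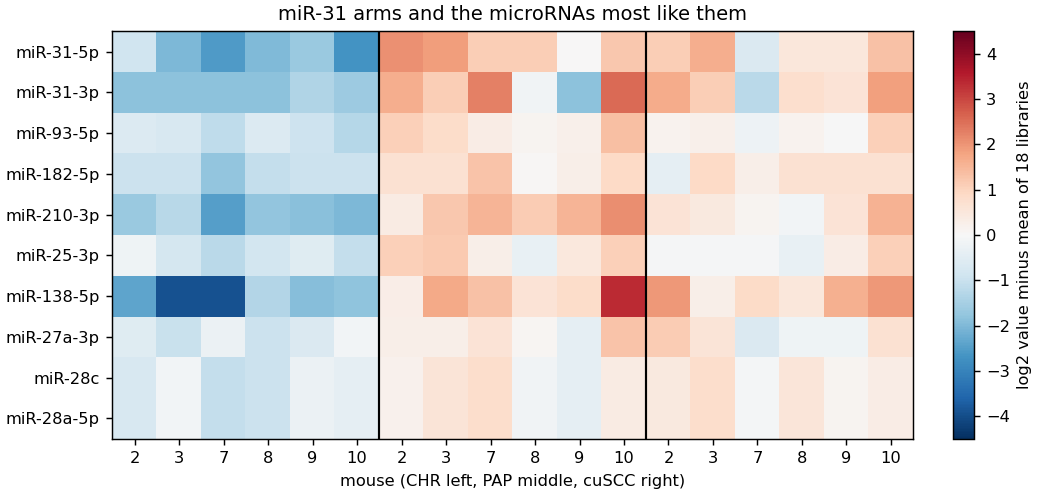
The miR-31 arms and the microRNAs most like them, as the log2 value in each library minus the mean of 18 libraries, with mice in the same order within each sample type. Red is above and blue below the mean. All 6 CHR libraries are below the mean for miR-31-5p, and among the lesions the cuSCC of mouse 7 and the PAP of mouse 9 are below or near it.

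miR-31 was set beside other microRNAs of injured or inflamed epidermis. Of 11 listed, 10 were tested, and 2 rose and 3 fell from CHR to PAP (median -0.10), 4 rose and 1 fell from CHR to cuSCC (median 0.32), and 1 rose from PAP to cuSCC (median 0.87). Over all microRNAs tested 14% were higher and 18.4% lower in PAP, 20.1% and 22.2% in cuSCC, and 9.22% and 2.39% from PAP to cuSCC, with medians of -0.23, 0.11 and 0.21. miR-17-5p and miR-20a-5p, products of the growth-promoting miR-17~92 cluster, rose in PAP by 2.32 and 1.90 (limma adjusted p = 0.000405 and 0.0367). They also rose in cuSCC, by 2.41 and 2.998 (limma adjusted p = 0.000232 and 1.93e-05). miR-19b-3p of the same cluster differed by 0.80 in PAP (limma adjusted p = 0.308) and rose by 1.67 in cuSCC (limma adjusted p = 0.0122). miR-20a-5p was detected in 12 libraries and miR-19b-3p in 8, with CHR means of 3.47 and 3.40 near the lowest value. The sizes of their differences therefore depend on where undetected values are placed. miR-146a-5p, a brake on inflammatory signalling, fell in PAP by 1.67 (limma adjusted p = 0.0146) and differed by -0.09 in cuSCC (limma adjusted p = 0.890). miR-222-3p fell in both, by 1.67 and 1.45 (limma adjusted p = 0.000677 and 0.00233). miR-203-3p, a microRNA of keratinocyte differentiation, differed by -0.16 and 0.50 (limma adjusted p = 0.779 and 0.322), and miR-155-5p was undetected in all libraries.

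The list for squamous carcinoma shares miR-21a-5p, miR-155-5p, miR-221-3p, miR-222-3p and miR-17-5p with the list of injured or inflamed epidermis. Members made from 1 cluster, such as miR-93-5p and miR-25-3p here or miR-17-5p and miR-20a-5p above, are not independent counts. Of 16 microRNAs listed for squamous carcinoma, 13 were tested. In PAP 6 were higher than in CHR and 1 lower (median 1.26), in cuSCC 9 were higher and 1 lower (median 1.12), and from PAP to cuSCC 2 were higher (median -0.06). The shares of all microRNAs tested were 14% higher and 18.4% lower in PAP, 20.1% and 22.2% in cuSCC, and 9.22% higher from PAP to cuSCC. miR-210-3p rose by 3.17 in PAP and 2.39 in cuSCC (limma adjusted p = 1.02e-05 and 7.75e-05), and miR-182-5p by 1.76 and 1.59 (limma adjusted p = 0.000292 and 0.000747). miR-21a-5p, a microRNA raised in many tumours, differed by 1.15 from CHR to PAP (limma adjusted p = 0.0800), rose by 2.94 from CHR to cuSCC (limma adjusted p = 3.73e-05) and rose by 1.79 from PAP to cuSCC (limma adjusted p = 0.0383). Whether these differences are unlike those of miR-31-5p was not tested, and the calls from PAP to cuSCC, 34 in all, came to 1 without mouse 3, 7 or 8.

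Markers of several cell types differed between the sample types along with miR-31. The counts of markers below stand against 14% of all microRNAs tested called higher and 18.4% lower in PAP, 20.1% and 22.2% in cuSCC, and 9.22% and 2.39% from PAP to cuSCC. Of 7 epithelial microRNAs, 4 were higher in PAP than in CHR and 3 in cuSCC, 1 was lower in cuSCC than in PAP (miR-200c-3p, by -1.45, limma adjusted p = 0.0319), and their mean level ranged from 9.48 to 11.1 over CHR, 10.7 to 11.9 over PAP and 10.4 to 11.97 over cuSCC libraries. miR-200a-3p was detected in 15 libraries and the others in all 18, so the tissue carried the markers of epithelium. Of the 4 skeletal muscle markers, 3 were tested, and all 3 were lower in PAP, 1 was lower in cuSCC (miR-133a-3p, limma adjusted p = 0.0476) and all 3 were higher in cuSCC than in PAP, with a mean level of 8.95 to 10.1 over CHR, 3.32 to 6.36 over PAP and 3.93 to 9.59 over cuSCC libraries. miR-133b-3p and miR-206-3p were at the lowest value in all 6 PAP libraries. Of 5 markers of fibroblasts and smooth muscle 3 were lower in PAP and 1 in cuSCC, and 2 were higher in cuSCC than in PAP, with a mean level of 11.4 to 12.1, 6.67 to 11.3 and 9.05 to 12.3 in CHR, PAP and cuSCC.

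Values were also taken against the mean of the 7 epithelial microRNAs of the same library, a comparison chosen after the data were seen. Undetected values of miR-200a-3p entered that mean at the lowest value. On that scale miR-31-5p differed from CHR by 2.15 in PAP and 1.81 in cuSCC (limma adjusted p = 0.00386 and 0.00417). miR-31-3p rose by 1.59 and 1.62 on that scale (limma adjusted p = 0.0266 and 0.00478). The rises were thus smaller than on the deposited scale, by the rise of the epithelial mean itself. Members of the epithelial list were themselves called between sample types, so that scale does not separate cell share from level per cell. Of the other markers, 2 of 2 endothelial microRNAs were higher in cuSCC than in CHR (20.1% over all microRNAs tested) and than in PAP (9.22%), and 0 were called in PAP against CHR, with a mean level of 6.63 to 8.27, 5.43 to 7.79 and 8.10 to 10.2 in CHR, PAP and cuSCC. Of 4 leukocyte markers 3 were tested, and 1 was lower in PAP (18.4% over all), while in cuSCC 1 was higher and 1 lower (20.1% and 22.2% over all) and 1 was higher than in PAP, with mean levels of 9.32 to 10.8, 6.40 to 9.39 and 8.66 to 10.6 in CHR, PAP and cuSCC. Of 3 erythroid markers 2 were tested, and 1 was higher in PAP (14% over all), while in cuSCC 1 was higher and 1 lower and 1 was lower than in PAP (2.39% over all), with mean levels of 10.01 to 12.2, 12.5 to 15.2 and 11.8 to 15.1. The part of these cells in the levels of miR-31 was not tested.

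Messenger RNA was not analysed here, and the sites below are a description of sequence. Ptpn14, a phosphatase that restrains YAP signalling, and Retreg1 (also Fam134b), a receptor for turnover of the endoplasmic reticulum, were chosen because the study discusses them with miR-31. They were searched for TCTTGCC, the match to the 5p seed, on the transcribed strand of the 3′ untranslated region in GRCm38.p6, and it is shown in capitals.
Ptpn14 at chr1:189874161-189874188: gtttggagatcggtTCTTGCCgtttgga
Ptpn14 at chr1:189874299-189874326: ctcttgggctacacTCTTGCCagcagga
Ptpn14 at chr1:189874638-189874665: gcactcgcagactcTCTTGCCtgtgagt
Retreg1 at chr15:25973524-25973551: ctgtgccttcatttTCTTGCCcattttg
Ptpn14 held 3 matches in a region of 6640 bases and Retreg1 held 1 in 1641 bases, all on the plus strand. Of the 3 in Ptpn14, the match at chr1:189874299-189874326 is followed by an A. Of 20979 genes, 2341 (11.2%) held at least 1 match in a 3′ untranslated region, and the median length of that region over all genes was 954 bases. The share at the lengths of these regions was not computed. The match to the 3p seed was found in neither gene and in 1150 genes (5.48%).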

How the data were processed

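MicroRNA abundances were obtained by the authors from a BLAST search of the small RNA reads against miRBase, as ppm of usable reads. Usable reads were free of adapter, at least 10 nt long and without a homopolymer tail of 9 nt or more. The versions of both are not given in the sources used here. The deposited values are log2 values, and their quantile normalization was read from the values, as at 150 shared ranks the libraries spread by a median of 0.0534. A microRNA above the lowest value was taken as detected. The 293 entries detected in at least 6 of 18 libraries were compared with limma 3.58.1 in R 4.3.3 (6 libraries of each type, no block, two-sided), and p-values were Benjamini-Hochberg adjusted over all 293, or over 67 hairpins for arm differences. Calls have an adjusted p under 0.05. Single values and ranks were compared with exact permutation tests, and ranks also with an exact sign-flip test paired by mouse. The test was tested on simulated data. Figures were drawn with matplotlib 3.10.9 in Python 3.11.15, and the hairpin was folded with RNAfold 2.7.2.

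Equal sample numbers mark the same mouse, so samples are paired. The deviations of paired samples from their group means correlated at 0.0250, -0.0676 and 0.0582 on average (PAP with CHR, cuSCC with CHR, cuSCC with PAP). Named microRNAs are both arms, the 6 and 4 most correlated with each, those with rises at least as large in both lesions, those above miR-31-5p in all PAP libraries, the 4 hairpins of nearest arm difference, microRNAs within 5 Mb and the list members. miR-6243 was named from the count of abundant microRNAs chosen after the values were seen. The members and lists were chosen with earlier results of these data known. The miR-126a and miR-142a names of the lists were matched to miR-126 and miR-142 in the table. Alternatives were other detection filters, one fit on all sample types, the mouse number as a replicate block, centring of each library, other lowest values, an unmoderated test and leaving out each mouse. Values against the epithelial mean were a further alternative, chosen after the data were seen. Sequences and gene models are those of GRCm38.p6, the mm10 build that the submitters' processing notes name.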

Additional observations from a re-analysis of the deposited data

Results flagged for a closer look

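Among 39 groups of 6 libraries checked for a library far from the others, covering the miR-31 arms, their difference, their ranks and the microRNAs most like them, 2 were flagged, and chance flags about 1 in 20. miR-182-5p in the CHR of mouse 7 stood at 14.3307, below the next library at 15.0273. miR-93-5p in the cuSCC of mouse 10 stood at 12.9589, above the next library at 12.1229. Neither arm of miR-31, nor their difference or ranks, was flagged in any sample type.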

How the results depend on the processing

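The rises of miR-31-5p kept their direction and stayed called under all 10 alternatives and without each mouse, at 2.15 to 3.27 in PAP and 1.81 to 2.72 in cuSCC over the alternatives. Only the centring of each library, 100 ppm added before log2 and the epithelial scale could change these sizes. miR-31-5p was detected in every library, so the other alternatives change only its error or the adjustment. With values under 100 ppm raised to 100 ppm, the rises of miR-31-3p were no longer called, at 0.33 in PAP and 0.0949 in cuSCC, and the arm difference was called, at 2.87 and 2.62. With undetected values at the lowest detected value the arm difference was 0.89 and 0.88, without a call. With 100 ppm added before log2 the arm difference was called too, at 2.40 and 2.06. Both hold the scarce 3p arm near a constant by construction. Against the epithelial mean the difference of miR-31-3p from PAP to cuSCC turned to 0.0322, without a call. With the mouse number as a replicate block, the paired fit, no call of either arm changed (adjusted p = 0.00063 and 0.000577 for miR-31-5p in PAP and cuSCC, 0.0198 and 0.00158 for miR-31-3p). Leaving out each mouse gave 3.06 to 3.51 and 2.46 to 2.88 for the rises of miR-31-5p, and 2.34 to 3.28 (without mouse 9) and 2.33 to 2.91 for those of miR-31-3p. It gave -0.0259 to 0.53 for the arm difference from CHR to cuSCC and -0.64 to 0.55 for miR-31-3p from PAP to cuSCC, both turning without mouse 7. It gave -0.0130 to 0.77 for the correlation of the arms in PAP, turning without mouse 9. The background of calls moved more. From PAP to cuSCC 34 microRNAs were called, 6 with the unmoderated test, 8 without a detection filter, 80 with undetected values at the lowest detected value, and 1 without mouse 3, 7 or 8. From CHR to PAP calls ran from 55 without mouse 3 to 149 against the epithelial mean, and from CHR to cuSCC from 77 without mouse 3 to 129 without mouse 10. Of the calls, 41 of 95, 59 of 124 and 27 of 34 were higher in PAP against CHR, cuSCC against CHR and cuSCC against PAP. These became 63 of 100, 51 of 118 and 18 of 80 with undetected values at the lowest detected value, and 11 of 149, 14 of 121 and 7 of 7 against the epithelial mean. Called arm differences ran from 2 to 25, 14 to 41 and 0 to 12 in these comparisons, against 5, 28 and 3 in the report. With undetected values at the lowest detected value the median of all microRNAs moved from -0.23 to 0.44 from CHR to PAP and from 0.21 to -0.48 from PAP to cuSCC. The unknown depth limits most the 3p arm, detected in 13 of 18 libraries.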
